A study of Mus musculus with 4 samples.

Results

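The response of Myc-CaP mouse prostate cancer cells to norepinephrine was compared, gene by gene, between a line that carried a hairpin against focal adhesion kinase (FAK, gene Ptk2) and a line that carried a control hairpin. For each gene, the log2 ratio of norepinephrine to vehicle was taken in each line, and the ratio in the control line was subtracted from that in the FAK-hairpin line. A positive difference therefore marks a gene whose norepinephrine ratio was higher in the FAK-hairpin line, and a negative difference one whose ratio was lower there. The genes described were the protein-coding genes with a mean of at least 5 CPM, the count scaled to the size of the library, over the 4 libraries. Of 22027 protein-coding genes, 9383 passed this level. Of these, 1401 were set aside because another annotated locus holds a near-identical stretch of sequence or because they are encoded in the mitochondrion, which left 7982 of the 52636 genes of the series. The ratios were not used in this choice. The level was a mean over all 4 libraries, so a gene high in only some of them could pass. Of the 7982 genes, 7820 had at least 5 CPM in all 4 libraries.

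The 4 groups were the shNC line in vehicle, the shNC line in norepinephrine, the shFAK line in vehicle and the shFAK line in norepinephrine, with 10 µM norepinephrine given for 24 h in both lines. Myc-CaP is an established line from the prostate of Hi-Myc transgenic mice (strain FVB), in which a probasin-derived promoter drives MYC, so every group carried that transgene. Both lines had taken up a hairpin construct stably. Whether either line was a single clone or a pool, and how many hairpin sequences were used, was not given in the sources used here. Each group was 1 library of total RNA, so no difference below has a replicate check and no p-value is given. What belongs to FAK and what to other ways in which the lines differ cannot be told apart here.

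Norepinephrine, the main transmitter of sympathetic nerves, acts through adrenergic receptors, which are coupled to G proteins. Beta receptors raise cAMP, which activates protein kinase A and, through it, the transcription factor CREB. FAK is a tyrosine kinase that integrins activate at sites of adhesion to the matrix, where it signals through SRC, paxillin and p130Cas, and adrenergic signalling through protein kinase A has been linked to FAK activation in tumour cells. Sympathetic nerves run through the prostate.

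The labels and the libraries were checked first. Ptk2 had 3547 and 3158 counts in the vehicle and norepinephrine libraries of shNC (120 and 118 CPM), and 1294 and 1248 in those of shFAK (48.8 and 52.0 CPM). Both shFAK libraries were thus well below both shNC libraries. Ptk2 itself shares short stretches with other loci and stands outside the 7982 genes. The libraries held between 23410486 and 29948640 counts. The epithelial markers Cdh1 (0 to 7 counts), Epcam (0 to 15) and Krt18 (1 to 4) were at or near 0 and Krt8 had 48 to 165 counts, so an epithelial identity is not shown by these markers. Of the markers of other cell types, the 9 fibroblast genes summed to between 7.65 and 13.6 CPM, almost all of it Pdgfra, with Col3a1, Dcn, Fap and Lum at 0, and the 8 endothelial genes to at most 0.54 CPM. The 8 leukocyte genes summed to between 1.05 and 1.62 CPM, and the 8 neuronal genes to between 71.4 and 89.1, mostly Rbfox3.

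The promoters of 4 genes that recur below are shown first, because CREB binds the palindrome TGACGTCA and, more weakly, its arms TGACG and CGTCA. Npy had the highest norepinephrine ratio of the described genes in each line, though it passed the level of 5 CPM through the norepinephrine libraries. Cebpb and Cck had ratios that were clearly larger in shNC than in shFAK, and Nr4a2 is a textbook cAMP target. The 250 bases before the start of each gene are given 5′ to 3′ on the gene's own strand, from RefSeq on GRCm38.p6, the build also called mm10. Capitals mark TGACG and CGTCA.
Npy, chr6:49822460-49822709, plus strand: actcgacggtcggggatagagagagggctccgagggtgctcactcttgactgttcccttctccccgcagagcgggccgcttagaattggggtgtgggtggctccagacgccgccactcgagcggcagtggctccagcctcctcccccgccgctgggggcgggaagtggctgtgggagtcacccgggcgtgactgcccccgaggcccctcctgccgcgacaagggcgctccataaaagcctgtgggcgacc
Cebpb, chr2:167688665-167688914, plus strand: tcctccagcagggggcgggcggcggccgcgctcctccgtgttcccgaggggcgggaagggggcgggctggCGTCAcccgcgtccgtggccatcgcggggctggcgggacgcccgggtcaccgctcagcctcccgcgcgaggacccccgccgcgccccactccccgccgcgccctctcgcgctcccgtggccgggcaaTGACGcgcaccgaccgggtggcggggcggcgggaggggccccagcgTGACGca
Nr4a2, chr2:57124004-57124253, minus strand: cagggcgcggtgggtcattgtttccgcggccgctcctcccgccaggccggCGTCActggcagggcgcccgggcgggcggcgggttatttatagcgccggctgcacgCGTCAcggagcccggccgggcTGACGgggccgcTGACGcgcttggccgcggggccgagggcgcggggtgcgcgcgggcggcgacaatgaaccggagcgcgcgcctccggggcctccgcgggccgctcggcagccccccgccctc
Cck, chr9:121495695-121495944, minus strand: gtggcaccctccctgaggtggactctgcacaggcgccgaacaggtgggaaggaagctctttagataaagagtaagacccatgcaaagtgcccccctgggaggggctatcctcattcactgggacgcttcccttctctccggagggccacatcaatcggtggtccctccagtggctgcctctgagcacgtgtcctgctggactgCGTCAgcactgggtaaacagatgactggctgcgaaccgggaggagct
Nr4a2 held 2 TGACG and 2 CGTCA, Cebpb 2 TGACG and 1 CGTCA, Cck 1 CGTCA and Npy none, and no window held the full palindrome. RefSeq promoters were matched for 6395 of the described genes, of which 206 (3.22%) held TGACGTCA and 32.7% held at least 1 TGACG or CGTCA on either strand. In all 27025 genes of the promoter table these shares were 1.77% and 19.8%. A gene was counted when any of its matched promoters held the letters. Of the genes called below, TGACG or CGTCA was found in 8 of 23 matched ones with a positive difference (34.8%). With a negative difference it was found in 6 of 16 (37.5%). Among matched genes called higher in shNC it was found in 15 of 45 (33.3%), and lower in shNC in 26 of 103 (25.2%). Among those called higher in shFAK it was found in 3 of 13 (23.1%). TGACGTCA was found in 2 of the 23 (8.70%), 2 of the 16 (12.5%), 2 of the 45 (4.44%), 5 of the 103 (4.85%) and 0 of the 13. These matches describe letters in a window and not bound sites.

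Across the described genes the norepinephrine ratios of the lines were positively related, and those of shFAK spread less. The log2 ratio had an SD over genes of 0.26 in shNC and 0.15 in shFAK, a ratio of 1.69 (shNC over shFAK), while the median counting error was alike in the lines (0.058 and 0.060). Pearson's r between the ratios was 0.66 and Spearman's rho 0.67 over 7982 genes, which are not independent replicates; the 2 ratios share no library. The least-squares slope of shFAK on shNC was 0.39. With shNC fitted on shFAK it was 1.12. The difference of the ratios had a median of 0.02 and an SD of 0.19, against a median counting error of 0.084. It lay within 1.2-fold for 6698 genes (83.9%) and within 1.5-fold for 7932 (99.4%), and ranged from -0.82 to 0.86. At a mean CPM of 1 or more (8989 genes) the ratio of SDs was 1.42. Without a filter on low counts (10906 genes) it was 0.90. The spread of genes of low count was not taken on its own, and the part of counting error in it was not tested.

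A gene was called when the difference was at least 1.5-fold (0.58 on the log2 scale) and its 99% counting interval left out 0. This held for 31 genes in the positive direction (0.388% of the 7982) and 16 in the negative (0.2%), or 0.589% in either. With a 2-fold size there were 0 genes (0%). With the interval alone there were 1204 positive (15.1%) and 897 negative (11.2%), or 26.3% in either. These intervals hold counting error alone; they leave out the variation of cultures, and reads that PCR copied from one molecule count more than once.

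**Figure D1:**
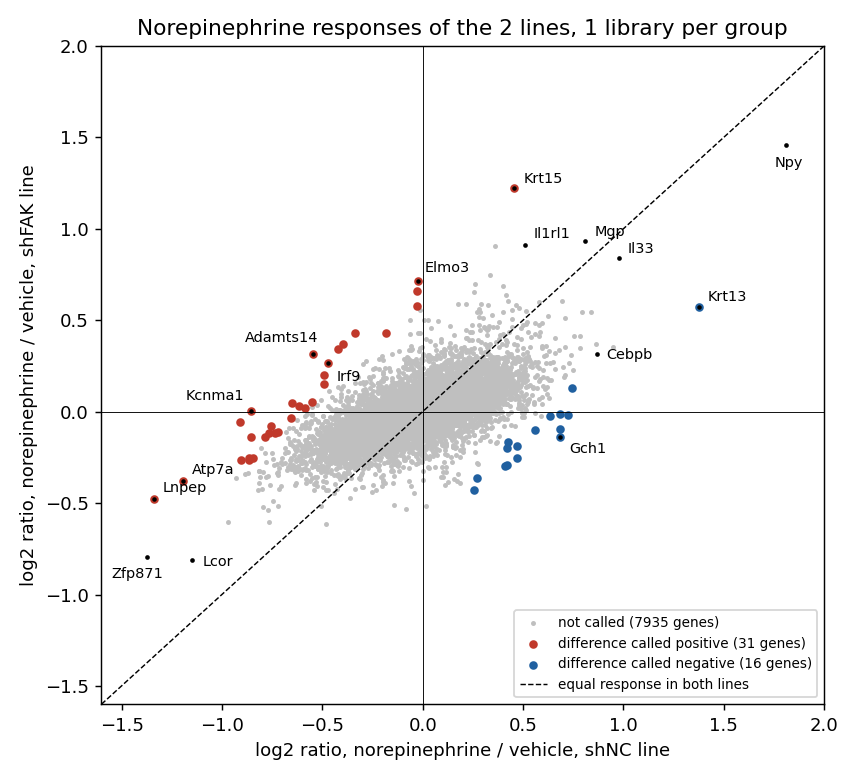
Log2 ratio of norepinephrine to vehicle in the shFAK line (vertical) against that in the shNC line (horizontal), 1 point per gene for the 7982 genes; red points are the 31 genes called positive, blue the 16 called negative, and the dashed line marks equal ratios. The cloud is wider along the shNC axis (SD 0.26) than along the shFAK axis (SD 0.15), and the called genes lie on both flanks of it.

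Read one line at a time, shNC gave more called genes than shFAK. By the same size and the exact 99% interval of each ratio, 56 genes were higher with norepinephrine in shNC (0.702%) and 134 lower (1.68%), against 19 higher (0.238%) and 5 lower (0.0626%) in shFAK. Both lines called 4 genes higher, which were Il33, Mgp, Npy and Slpi, and 4 lower, which were Farp2, Lcor, Sytl5 and Zfp871. Called in opposite directions were 0 genes. The 56 genes higher in shNC had a median of 0.66 there and 0.27 in shFAK, where 50 were above 0, 18 reached at least 50% of the shNC log2 ratio and 1 reached all of it. The 134 lower genes had a median of -0.66 in shNC and -0.27 in shFAK, where 130 were below 0 and 22 reached at least 50%. Chosen the other way, the 19 genes higher in shFAK had a median of 0.69 there and 0.40 in shNC, and 17 of them were above 0 in shNC. The 5 genes lower in shFAK had a median of -0.62 there and -0.97 in shNC. The part of counting error in these gaps was not tested.

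Gene length moved with these values. In the shNC line the median log2 ratio ran from 0.27 in the shortest 10% of the genes to -0.31 in the longest 10%, and in shFAK from 0.08 to -0.13. The difference therefore ran the other way, from a median of -0.17 in the shortest 10% (median length 1477 bases) to 0.19 in the longest (12804 bases), with a Spearman correlation of 0.54 with length. By library, the deviation from the mean of the 4 ran from 0.22 to -0.29 in shNC norepinephrine and from -0.14 to 0.19 in shFAK vehicle. It ran from -0.03 to 0.02 in shNC vehicle and from -0.06 to 0.07 in shFAK norepinephrine. The shNC norepinephrine library thus stood farthest from the rest, and since each group is 1 library it cannot be left out. Whether the trend belongs to that library or to the response cannot be told apart here.

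For that reason differences were also computed after a smooth trend of each library on gene length and on the GC content of the transcript had been taken off (the detrended value). Where the interval of a named gene's difference left out 0, the detrended value, or that the gene was no longer called, is given if that interval held 0 or the value moved by over 1.5 times. The correlation of the difference with length was then 0.03, the SDs of the ratios 0.19 and 0.13, Pearson's r 0.48, Spearman's rho 0.46 and the slope 0.33. The Spearman correlation of the difference with GC content was -0.22 as scaled and still -0.20 when detrended. The detrended values are therefore not free of a relation to GC content. The called genes were then 19 positive (0.238%) and 13 negative (0.163%), of which 16 and 6 were among the 31 and 16. With the interval alone there were 450 positive (5.64%) and 1065 negative (13.3%), so the balance of directions turned.

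**Figure D2:**
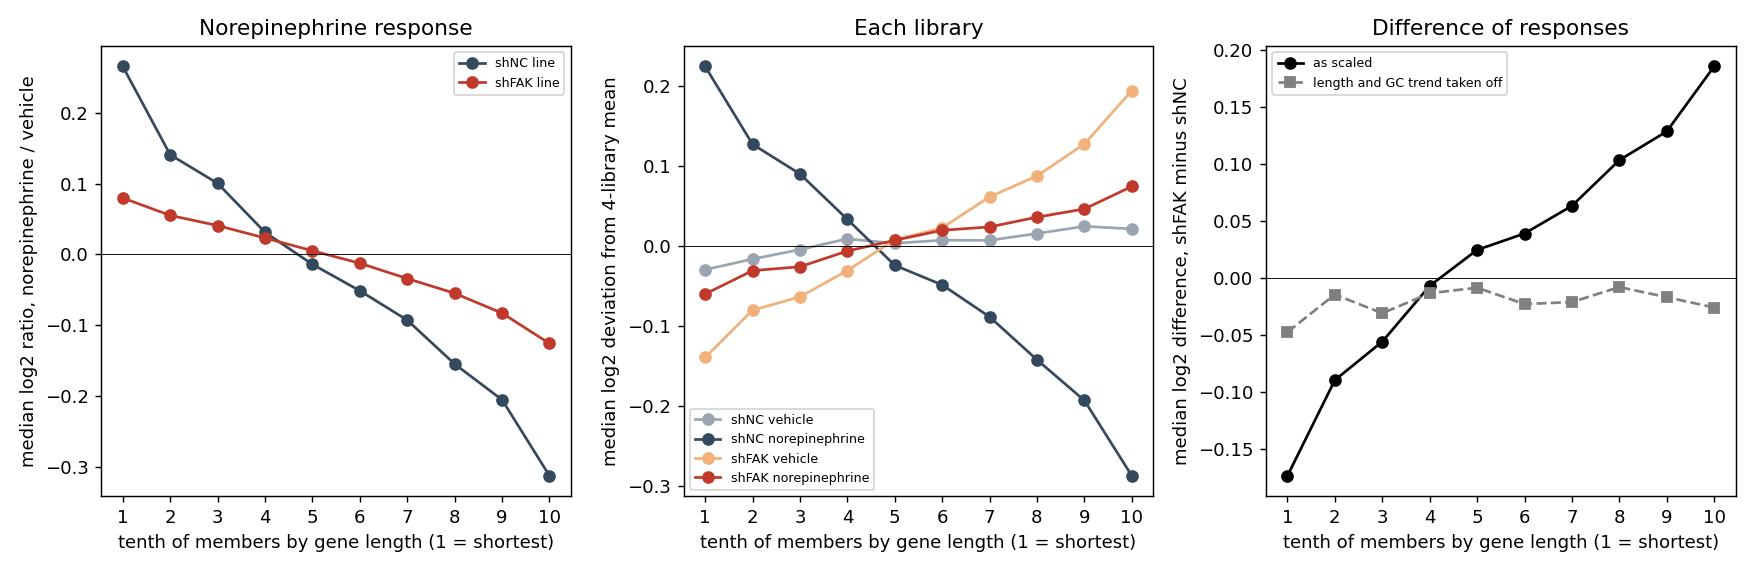
Medians over 10 equal groups of the 7982 genes ordered by gene length (horizontal, 1 is shortest): the norepinephrine log2 ratio in each line (left), each library's log2 deviation from the mean of the 4 (middle), and the difference of ratios as scaled and detrended (right). The shNC norepinephrine library runs from 0.22 to -0.29, and the difference as scaled from -0.17 to 0.19.

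The 31 genes with a positive difference were mostly genes that were lower with norepinephrine in shNC and near 0 in shFAK. Their median log2 ratio was -0.65 in shNC and 0.02 in shFAK, and 30 of them were below 0 in shNC. Of the 31, 18 were called lower in shNC, 3 were called higher in shFAK and 10 were called in neither line. Since the genes were picked by this difference, these values describe the choice and support nothing further. In 27 of them the shNC norepinephrine library was the lowest of the 4, against 40.7% of the described genes. They were longer than most, with a median length of 7187 bases against 4639, and 14 of them averaged under 10 CPM, against 680 of the 7982.

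Lnpep (chromosome 17, 17527723 to 17624489 of mm10), a membrane aminopeptidase that travels with the insulin-regulated glucose transporter, had the largest positive difference. It had 864 and 306 counts in the vehicle and norepinephrine libraries of shNC, and 1058 and 687 in those of shFAK. It was lower with norepinephrine in both lines, by far more in shNC. The ratios were -1.34 and -0.48, and the difference was 0.86 (99% interval 0.56 to 1.17), or 1.82-fold. Detrended, it was 0.83.

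Atp7a (chromosome X, 106027276 to 106124926), the copper pump of the secretory pathway, followed the same course. Its counts were 473 and 185 in shNC and 681 and 474 in shFAK; below, 4 counts in a row keep this order, with vehicle before norepinephrine. The ratios were -1.19 in shNC and -0.38 in shFAK, a difference of 0.82 (0.43 to 1.21). Pdpr, a regulatory subunit of the phosphatase that activates pyruvate dehydrogenase, had 620, 308, 719 and 591 counts and ratios of -0.85 and -0.14. In both genes the shNC norepinephrine library was the lowest.

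Several of the positive genes were at the same level in both shFAK libraries. Kcnma1 (chromosome 14, 23289431 to 24014491), the pore of the calcium-activated BK potassium channel, had 249, 123, 242 and 220 counts. Its CPM in shFAK was 9.12 in vehicle and 9.16 in norepinephrine, against 8.41 and 4.61 in shNC, and the difference was 0.86 (0.33 to 1.39). Mtcp1, of the TCL1 family of AKT-binding proteins, had 198, 94, 176 and 153 counts and a difference of 0.85 (0.23 to 1.47). Mfsd4a, a transporter of the major facilitator family, had 406, 232, 393 and 368 counts and a difference of 0.70 (0.29 to 1.11). Reads of Mtcp1 could also come from Cmc4, which shares 12.7% of its exon bases, and those of Mfsd4a from Elk4 on the other strand, since whether counting used strand is not given.

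In other positive genes the ratios had opposite signs, without both being called. Irf9 (chromosome 14, 55603571 to 55610030), the DNA-binding subunit of the complex that drives interferon-stimulated genes, had 286, 185, 255 and 278 counts. It was at 9.66 and 6.94 CPM in shNC and at 9.61 and 11.6 CPM in shFAK, so only the norepinephrine libraries lay apart. The ratios were -0.47 and 0.27 and the difference 0.74 (0.26 to 1.21), or 0.68 when detrended. An isoform of Irf9 shares sequence with another locus, so Irf9 drops out when every isoform is searched for copies. Adamts14, which trims procollagen, had 142, 87, 173 and 195 counts and ratios of -0.54 and 0.31. Cpeb2, a regulator of polyadenylation and translation, had 246, 168, 175 and 205 counts and ratios of -0.39 and 0.37. The septin Sept8 had ratios of -0.34 and 0.43, and Ss18l1, a subunit of the neuronal BAF remodelling complex, of -0.42 and 0.34. The nicotinic receptor subunit Chrnb2 had ratios of -0.49 and 0.20, and its difference of 0.69 was not called when detrended (0.55). Adar on the other strand overlaps 16.3% of the exon bases of Chrnb2.

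The 3 positive genes called higher with norepinephrine in shFAK were Krt15, Elmo3 and Adamts10. Elmo3, a partner of DOCK proteins in the activation of the small GTPase RAC, had 156, 138, 97 and 145 counts. It was at 5.27 and 5.18 CPM in shNC and at 3.66 and 6.04 in shFAK, so the shFAK vehicle library was the lowest. The difference was 0.74 (0.09 to 1.38). Adamts10, a metalloprotease of fibrillin microfibrils, had 144, 127, 107 and 154 counts and ratios of -0.03 and 0.66. Its difference of 0.69 (0.04 to 1.33) was not called when detrended (0.56).

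**Figure D3:**
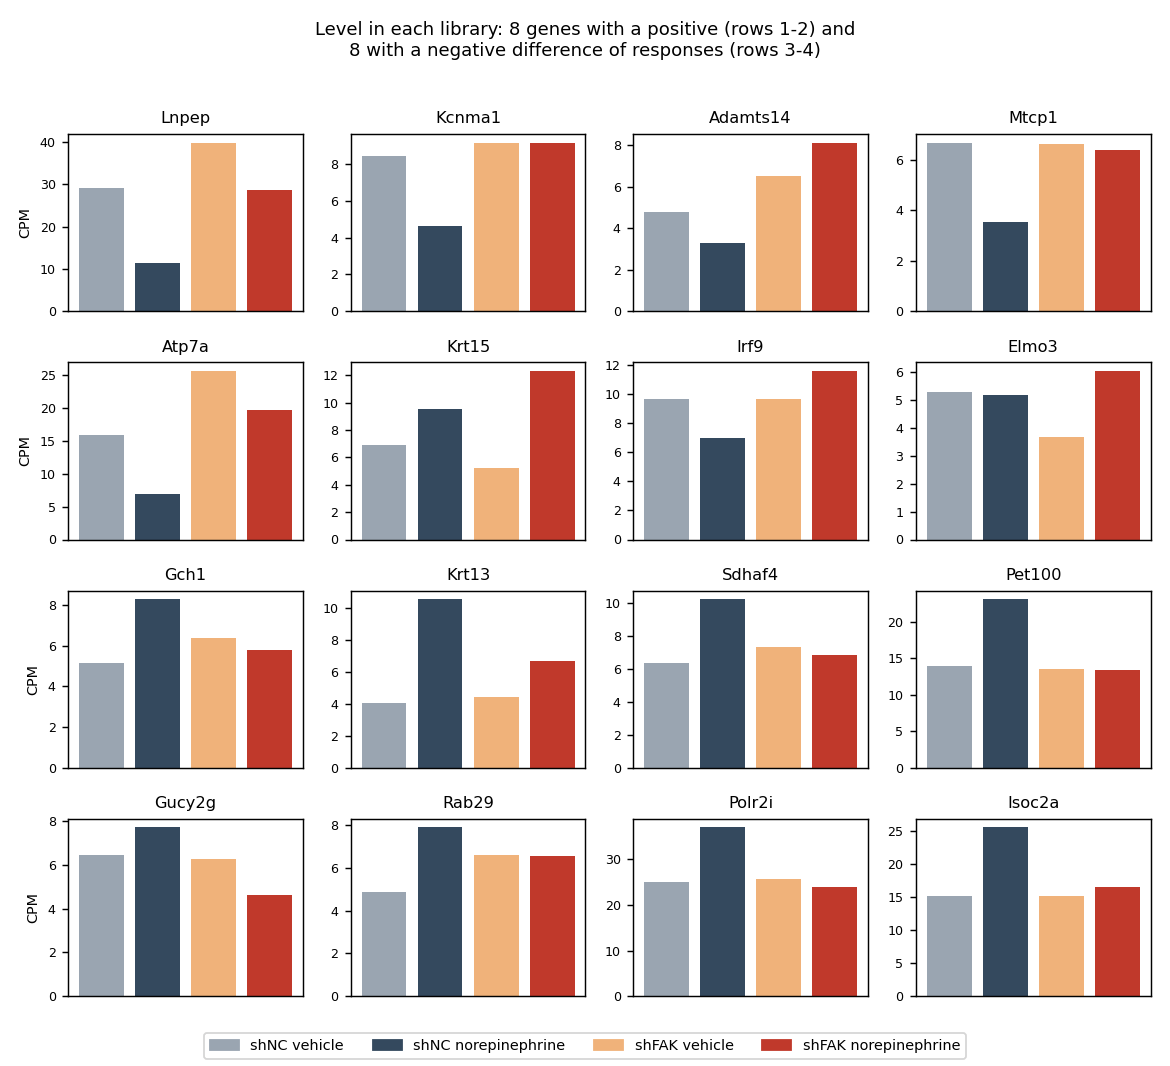
CPM in each of the 4 libraries (bars, from 0) for 8 genes with a positive difference of responses (rows 1 and 2) and 8 with a negative one (rows 3 and 4); there is 1 library per bar and no error bar. In Lnpep, Kcnma1, Mtcp1 and Atp7a the shNC norepinephrine bar is the lowest, and in the 8 genes of the lower rows it is the highest.

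The 16 genes with a negative difference were the reverse: all 16 were above 0 in shNC, with a median of 0.52, and 14 were below 0 in shFAK, with a median of -0.15. Of the 16, 7 were called higher in shNC and 9 were called in neither line. The shNC norepinephrine library was the highest of the 4 in 14 of them, against 33.7% of the described genes. Their median length was 1754 bases, and 10 of the 16 averaged under 10 CPM.

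Gch1 (chromosome 14, 47153895 to 47189413) had the largest negative difference. It encodes GTP cyclohydrolase, the rate-limiting enzyme of the synthesis of tetrahydrobiopterin, the cofactor that tyrosine hydroxylase needs to make catecholamines. Its counts were 152, 221, 169 and 139. The shNC norepinephrine library, at 8.29 CPM, stood above the other 3, at 5.13 to 6.37. The ratios were 0.68 and -0.14 and the difference -0.82 (-1.40 to -0.25), or -0.77 when detrended. Pcbd2, a dehydratase that recycles the same cofactor, had 401, 483, 376 and 278 counts and ratios of 0.42 and -0.29. Its difference of -0.71 (-1.09 to -0.32) was not called when detrended (-0.51).

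Sdhaf4, Pet100 and Me3 came next in size after Gch1 and Krt13, and in Sdhaf4 and Pet100 the shNC norepinephrine library stood above the other 3. Sdhaf4, an assembly factor of succinate dehydrogenase, had 188, 273, 195 and 165 counts and a difference of -0.78 (-1.30 to -0.25). Pet100, which helps to assemble cytochrome c oxidase, had 414, 616, 359 and 321 counts and a difference of -0.74 (-1.11 to -0.37). Me3, the mitochondrial malic enzyme, had 126, 158, 160 and 121 counts and a difference of -0.73 (-1.35 to -0.10). All 3 were called again when detrended, at -0.60, -0.61 and -0.95. An isoform of Me3 shares sequence with another locus, so Me3 drops out when every isoform is searched for copies. For Pet100, 52.6% of the exon bases overlap Pcp2 on the other strand, and the reads of the pair cannot be told apart. For Sdhaf4, 12.7% overlap Gm26524 on the other strand.

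Among the other negative genes, Gucy2g, a receptor guanylate cyclase, had 191, 206, 166 and 111 counts and ratios of 0.26 and -0.43. It was the shFAK norepinephrine library that lay lowest here, at 4.62 CPM against 6.26 to 7.73 in the others. Its difference of -0.69 (-1.27 to -0.10) was called again when detrended (-0.68). Polr2i, a subunit of RNA polymerase II, had 744, 988, 681 and 575 counts and a difference of -0.66 (-0.94 to -0.38), and Isoc2a had 450, 681, 401 and 397 counts and a difference of -0.62 (-0.96 to -0.27). Rab29, Hopx, Nr2c2ap, Plek2, Zswim3 and Mlf1 lay between -0.71 and -0.61. None of these last 8 was called when detrended. Nr2c2ap shares 82.4% of its exon bases with Rfxank, Hopx 27.2% with Hopxos and Polr2i 26.8% with Tbcb, each on the other strand.

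A pair of neighbouring keratin genes on chromosome 11 had differences of opposite sign. Keratins are the intermediate filament proteins of epithelia; Krt15 is typical of basal cells and Krt13 of the upper layers of stratified epithelium. Krt15 (100131758 to 100135928) had 205, 254, 139 and 296 counts, and Krt13 (100117327 to 100121566) had 119, 281, 118 and 160. Both genes were higher with norepinephrine in both lines. At 4.02 and 4.45 CPM in vehicle, Krt13 passed the level of 5 CPM through the norepinephrine libraries (10.5 in shNC and 6.66 in shFAK). Krt13 had ratios of 1.37 in shNC and 0.57 in shFAK, a difference of -0.80 (-1.40 to -0.20). Krt15 had ratios of 0.46 and 1.22, a difference of 0.77 (0.25 to 1.28). The detrended differences were -0.70 and 0.87, and both were called.

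The genes with the largest ratios in each line show which responses were seen in both. Npy (chromosome 6, 49822710 to 49829507), the neuropeptide that sympathetic nerves release with norepinephrine, had 66, 213, 115 and 289 counts. Each norepinephrine library lay well above its vehicle library. The ratios were 1.81 (exact 99% interval 1.32 to 2.40) and 1.46 (1.06 to 1.90), and the difference was -0.35 (-1.01 to 0.31). The interval thus runs from a response 2-fold smaller in shFAK to one that is larger there, and these counts do not resolve it.

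Il33 is a cytokine released by damaged cells, and Il1rl1 encodes its receptor ST2. Il33 had 304, 541, 799 and 1295 counts. Its ratios were 0.98 and 0.84, and the difference was -0.14 (-0.45 to 0.17), while its level was higher in both shFAK libraries. Il1rl1 had 278, 357, 180 and 308 counts, with ratios of 0.51 and 0.91 and a difference of 0.40 (-0.05 to 0.86). Mgp, the matrix Gla protein that inhibits calcification, had 348, 551, 138 and 240 counts, with ratios of 0.81 and 0.93. The protease inhibitor Slpi had 126, 185, 432 and 595 counts, with ratios of 0.70 and 0.60. For Il33, Il1rl1, Mgp and Slpi the interval of the difference held 0.

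Other genes that were higher in shNC had smaller ratios in shFAK. Cebpb (chromosome 2, 167688915 to 167690418), a transcription factor that cAMP and cytokines induce, had 1922, 3162, 1886 and 2127 counts. The vehicle libraries were close, at 64.9 and 71.1 CPM, and the norepinephrine libraries were at 119 and 88.5. Its ratios were 0.87 and 0.32 and its difference -0.55 (-0.71 to -0.39), just under the 1.5-fold size, and -0.49 when detrended. Tmem189 on the other strand overlaps 20.7% of its exon bases. The detrended ratios of Cebpb were 0.39 in shNC and -0.10 in shFAK, where the ratio was thus below 0. Cck, which encodes cholecystokinin, had 482, 791, 2781 and 3251 counts, with ratios of 0.86 and 0.37 and a difference of -0.49 (-0.73 to -0.26). Of the printed promoters, that of Cebpb holds 3 of the marked motifs and that of Npy none.

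Spink8, a protease inhibitor of the Kazal type, had ratios of 0.95 and 0.35, and the neurotrophic factor Nrtn of 0.84 and 0.54. Cdc42ep5, an effector of the small GTPase CDC42, had ratios of 0.79 and 0.55, and Unc119, a chaperone for lipid-modified proteins, of 0.78 and 0.42. The interval of the difference held 0 for these 4 genes, and the counts of Spink8 were low (76, 134, 203 and 235). Detrended, the ratios in shNC and shFAK were 0.16 and -0.02 for Nrtn and 0.76 and 0.34 for Spink8. They were 0.47 and 0.32 for Cdc42ep5 and 0.56 and 0.20 for Unc119.

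Among the genes with the lowest ratios, those named here except Cp had the lower ratio in shNC. Most of them were picked by a low ratio in shNC, so this order in part describes the choice. Zfp871, a zinc finger gene, had 538, 186, 1004 and 524 counts, with ratios of -1.37 and -0.79 and a difference of 0.58 (0.21 to 0.95). Lcor, a corepressor of nuclear receptors, had 313, 126, 444 and 228 counts and ratios of -1.15 and -0.81. Zbtb16, the androgen- and glucocorticoid-responsive factor PLZF, had 1518, 746, 1642 and 1176 counts, with ratios of -0.87 and -0.34 and a difference of 0.53 (0.32 to 0.75). Sytl5, Dgkh, Prrg4 and Klhl11 had ratios from -0.97 to -0.88 in shNC and from -0.60 to -0.27 in shFAK, and Farp2 had -0.76 and -0.60. Of these, Prrg4 was among the 31 called genes, at 0.64 (0.23 to 1.05). For Lcor, Sytl5, Dgkh and Farp2 the interval of the difference held 0. Cp, ceruloplasmin, was the 1 gene called lower in shFAK and not in shNC: its 5795, 3742, 4906 and 2898 counts gave -0.48 and -0.62, a difference of -0.14, or -0.28 when detrended.

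The 15 genes called higher in shFAK and not in shNC included Plekhg4, an exchange factor for small GTPases, with 298, 345, 332 and 565 counts and ratios of 0.36 and 0.91. Prr13 had 608, 691, 585 and 890 counts and ratios of 0.34 and 0.75, and Csad, an enzyme of taurine synthesis, ratios of 0.26 and 0.70. Borcs6, a subunit of a complex that positions lysosomes, had ratios of 0.40 and 0.69 on 98 to 192 counts. The difference of Plekhg4 was 0.55 (0.16 to 0.94) and that of Prr13 0.41 (0.13 to 0.70). For Csad and Borcs6 the interval held 0, though that of Csad did not when detrended (0.53, 0.01 to 1.04), and 41.2% of the exon bases of Borcs6 overlap a gene on the other strand.

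**Figure D4:**
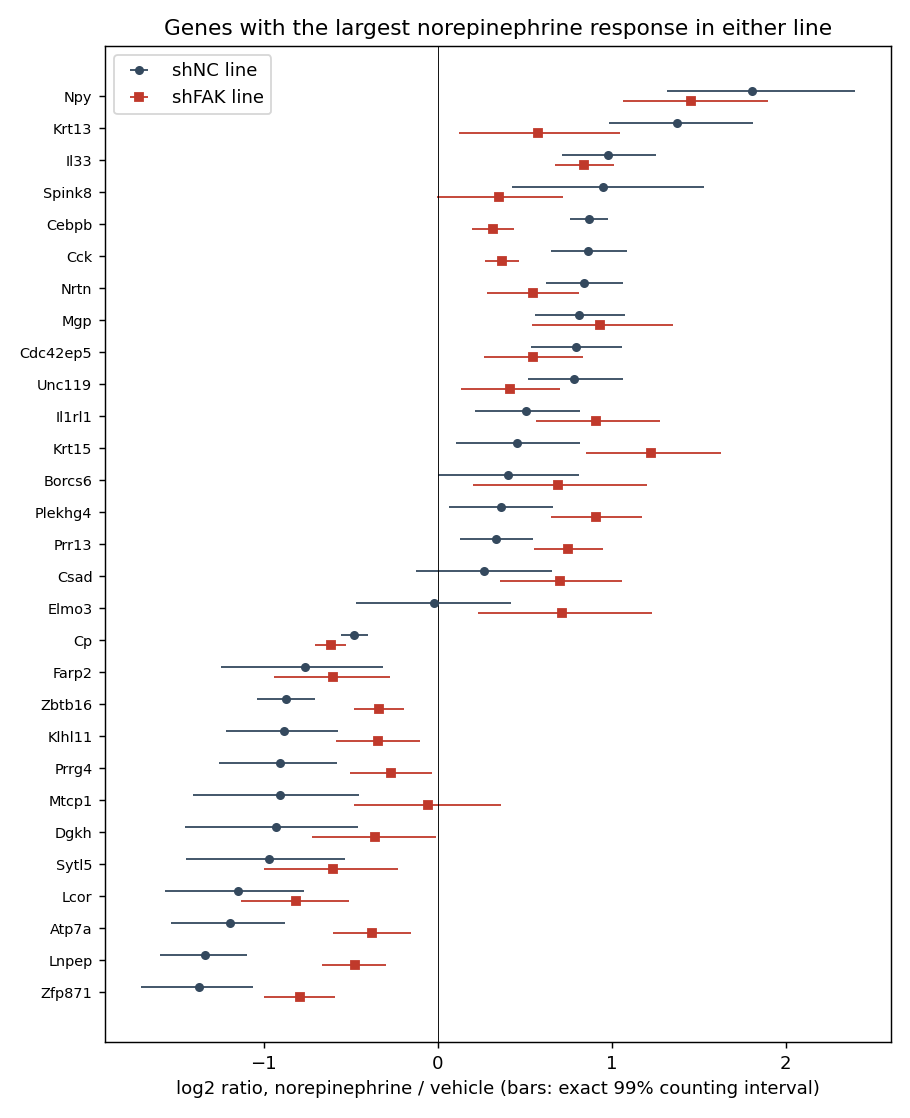
Log2 ratio of norepinephrine to vehicle in the shNC line (dark circles) and the shFAK line (red squares) with exact 99% counting intervals, for the genes with the largest ratios in either line. Npy, Il33 and Mgp have overlapping intervals in the lines, and those of Cebpb (0.76 to 0.98 and 0.20 to 0.44) do not overlap.

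The gene lists are ordered from the receptor inwards. They describe these libraries by counts and medians beside the same over the 7982 genes (median 0.02, 54.3% above 0). By the interval alone, 15.1% of the 7982 genes were positive and 11.2% negative. The detrended median of the 7982 was -0.02, with 5.64% positive and 13.3% negative. List counts near these shares do not set a list apart. Of the receptors, Adra1b, an alpha receptor, had 291, 285, 383 and 369 counts and a difference of -0.03. Of the 15 cAMP/CREB-induced genes, 7 were above 0, with a median of -0.00 and a range from -0.43 to 0.12; by the interval alone 0 were positive and 3 negative. When detrended, the median was -0.04, with 0 positive and 2 negative. The 3 were Nr4a2, an orphan nuclear receptor that cAMP induces, and the helix-loop-helix inhibitors Id1 and Id2. Nr4a2 had 336, 479, 338 and 360 counts, with ratios of 0.66 and 0.23 and a difference of -0.43 (-0.81 to -0.04). Id1 had 1273, 1699, 1420 and 1530 counts, with ratios of 0.57 and 0.25 and a difference of -0.32 (-0.51 to -0.12), or -0.17 when detrended (-0.36 to 0.03). Over the list, the median ratio was 0.10 in shNC and 0.11 in shFAK, while these members had the higher ratio in shNC.

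Immediate early genes, which growth factor and stress signals induce within minutes, gave 9 of 18 above 0 with a median of -0.01, and 1 positive and 5 negative by the interval alone, or 0 and 2 when detrended. Klf2, a Krüppel-like factor, had 192, 283, 204 and 211 counts, with ratios of 0.70 and 0.19 and a difference of -0.51 (-1.02 to -0.01), or -0.47 when detrended (-0.97 to 0.03). Of 6 ERK feedback regulators 5 were above 0, with a median of 0.07, or 0.12 when detrended. Spred2, an inhibitor of RAS-ERK signalling, was at -0.35 and -0.07, and the phosphatase Dusp6 at -0.11 and 0.00.

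On the side of FAK, 14 of the 15 genes of its signalling complex were above 0, with a median of 0.08, and 1 was positive by the interval alone. That gene was Crkl, an adaptor downstream of p130Cas, with 2390, 1572, 2415 and 2025 counts, ratios of -0.45 and -0.11 and a difference of 0.34 (0.18 to 0.51). Nedd9, a relative of p130Cas that binds FAK, had 386, 248, 413 and 353 counts and a difference of 0.40 (-0.00 to 0.80). Ptk2b, the FAK relative PYK2, had ratios of 0.32 and 0.37. The detrended median of the complex was -0.05, and 1 gene was positive and 2 negative. Of 19 focal adhesion and integrin genes, 16 were above 0 with a median of 0.09, and 8 were positive and 2 negative by the interval alone. Vcl, vinculin, which ties adhesions to actin, had 5005, 2696, 5140 and 3801 counts, with ratios of -0.74 and -0.29 and a difference of 0.45 (0.33 to 0.57), or 0.31 when detrended; 25.5% of its exon bases overlap Ap3m1 on the other strand. The detrended list had a median of -0.01, with 1 positive and 5 negative.

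Of 19 actin and myosin genes 8 were above 0, with a median of -0.05, and 5 were positive and 7 negative by the interval alone. The detrended median was -0.08, with 1 positive and 10 negative. Tpm2, a tropomyosin, had a difference of -0.34 (-0.64 to -0.04), while Rdx, radixin, which links actin to the membrane, had one of 0.24 (0.14 to 0.33). YAP/TAZ targets gave 10 of 17 above 0, with a median of 0.11, or -0.04 when detrended. Among them Gadd45a, a stress-induced growth arrest gene, had a difference of -0.45 (-0.89 to -0.01), or -0.32 when detrended (-0.76 to 0.12), and Tgfb2, a TGF-beta ligand, one of -0.33 (-0.64 to -0.02).

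Extracellular matrix genes gave 16 of 18 above 0, with a median of 0.16, and 8 positive and 1 negative by the interval alone. Fn1, fibronectin, the main integrin ligand of the list, had 75384, 50151, 90765 and 78434 counts. The shNC norepinephrine library was the lowest, and the ratios were -0.44 and -0.07 with a difference of 0.37 (0.34 to 0.40). Col12a1 had 1906, 1087, 3492 and 2629 counts and a difference of 0.39 (0.22 to 0.56), and Lama3, a laminin chain of epithelial basement membrane, one of 0.44 (0.11 to 0.78). Detrended, the intervals of both held 0, at 0.16 (-0.01 to 0.33) for Col12a1 and 0.27 (-0.06 to 0.61) for Lama3. The detrended median was 0.06, with 3 positive and 2 negative, and Fn1 was at 0.18.

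Chromatin modifiers had the highest median of the lists with at least 3 described genes, at 0.22, with 22 of 24 above 0 and 18 positive and 0 negative by the interval alone. Kdm5a, a histone demethylase, had 1384, 784, 1420 and 1210 counts, with ratios of -0.67 and -0.09 and a difference of 0.58 (0.36 to 0.80). Ep300, the acetyltransferase and CREB coactivator, had 2310, 1319, 2737 and 2194 counts, with ratios of -0.66 and -0.18 and a difference of 0.48 (0.31 to 0.65). Tet3, which oxidises methylcytosine, had 1552, 930, 1699 and 1448 counts and a difference of 0.50 (0.30 to 0.70). In all 3 genes the shNC norepinephrine library was the lowest. The detrended median was 0.04, with 7 positive and 1 negative, and these 3 genes were at 0.38, 0.27 and 0.26 (Kdm5a, Ep300 and Tet3).

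Nuclear respiratory chain genes gave 2 of 19 above 0, with a median of -0.11, and 1 positive and 10 negative by the interval alone. Cox4i1, a subunit of cytochrome c oxidase, had 15962, 17897, 12742 and 11683 counts, with ratios of 0.32 and 0.02 and a difference of -0.30 (-0.36 to -0.24). Sdhc, of succinate dehydrogenase, had a difference of -0.32 (-0.51 to -0.12). The detrended median was -0.07, with 0 positive and 7 negative, and Cox4i1 was at -0.21 and Sdhc at -0.30. Of the cytosolic ribosomal protein genes 27 of 30 were set aside for their copies, and among the others Rps14 had a difference of -0.31 and Rpl3 one of -0.10, or -0.19 and -0.06 when detrended.

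Of the stress lists, the integrated stress response gave 6 of 18 above 0, with a median of -0.04. Besides Cebpb, its member Atf5, a translationally induced factor, had 1526, 1688, 1382 and 1211 counts, with ratios of 0.30 and -0.05 and a difference of -0.34 (-0.54 to -0.15). Unfolded protein response genes gave 11 of 20 above 0. Ern1, the sensor kinase IRE1, had 1778, 1152, 1861 and 1722 counts, with ratios of -0.47 and 0.03 and a difference of 0.51 (0.32 to 0.69). By the interval alone 5 of these 20 genes were positive and 7 negative, or 4 and 5 when detrended.

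Interferon-stimulated genes gave 6 of 11 above 0, with a median of 0.01, or 0.08 when detrended. They held Irf9, the 1 called gene among the lists, which drops out when every isoform is searched for copies. Bst2, the antiviral protein tetherin, was at 0.47 in shNC and 0.12 in shFAK, a difference of -0.35 (-0.52 to -0.18), opposite to Irf9, or -0.19 when detrended. NF-kB and cytokine genes gave 3 of 7 above 0, with a median of -0.14, and 0 of the intervals left out 0; when detrended 1 was negative. TGF-beta and SMAD feedback targets gave 3 of 10 above 0, with a median of -0.12 and -0.16 when detrended. The 4 neuroendocrine genes had a median of -0.29 and -0.15 when detrended, and include Npy and Cck.

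Folh1, the counterpart of prostate-specific membrane antigen, had 70, 96, 607 and 541 counts. At 2.36 and 3.60 CPM in shNC, it passed the level of 5 CPM through the shFAK libraries (22.9 and 22.5). It was far higher in both shFAK libraries, and its ratios were 0.59 and -0.02 with a difference of -0.61 (-1.23 to 0.00), short of a call. Among epithelial genes the tight junction protein Tjp1 had a difference of 0.37 (0.25 to 0.50), or 0.24 when detrended, and the simple-epithelium keratin Krt7 one of -0.31 (-0.50 to -0.12), and 4 of 9 were above 0. The synthesis genes of cholesterol and fatty acids gave 16 of 22 above 0, with a median of 0.10, or 0.02 when detrended. Amino acid transporters gave 8 of 11, with a median of 0.10, or 0.05.

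**Figure D5:**
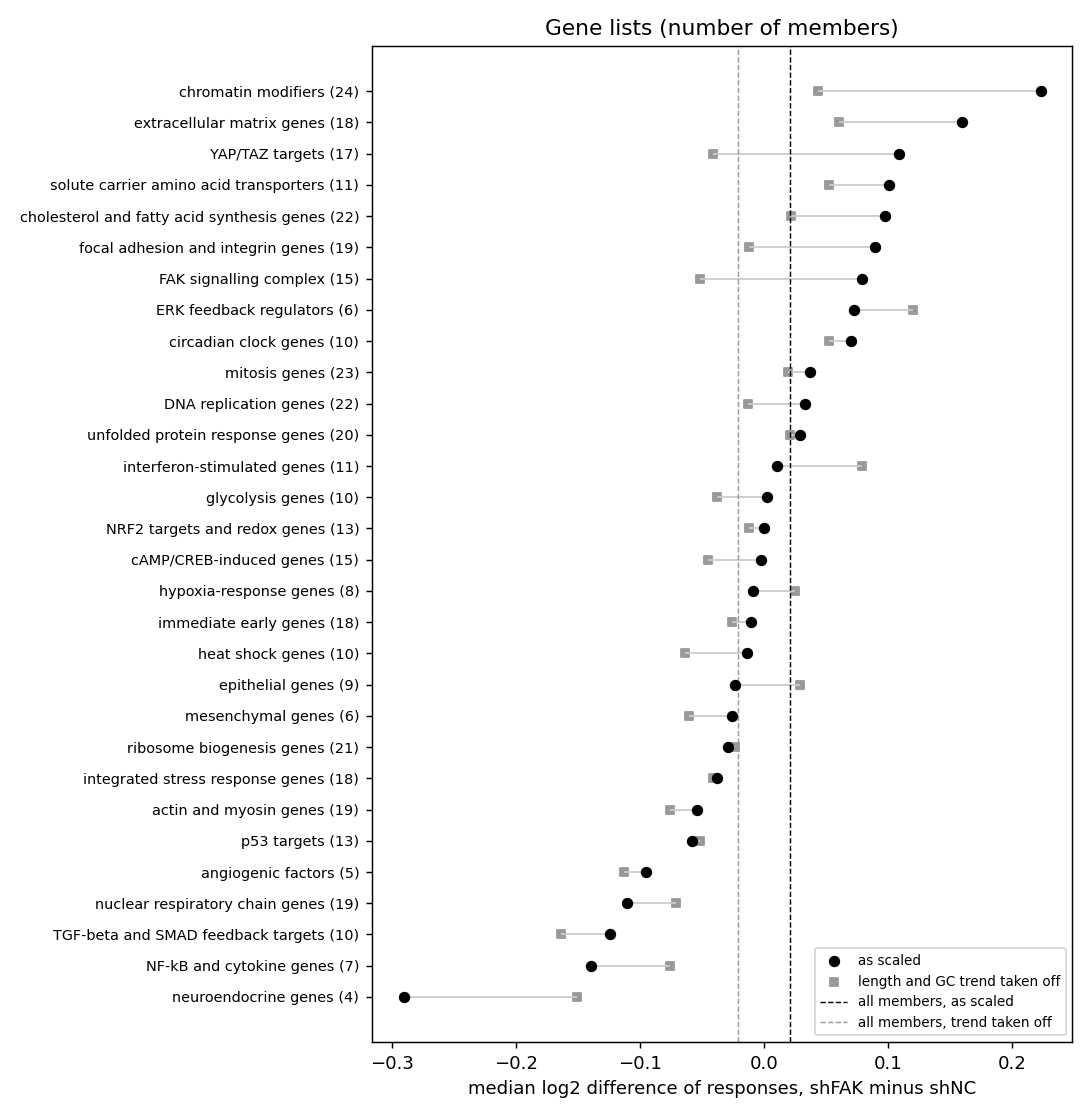
Median log2 difference of norepinephrine responses, shFAK minus shNC, for 30 of the lists with at least 3 described genes (number in brackets), as scaled (black circles) and detrended (grey squares). Cytosolic ribosomal protein genes and a list not reported here are left out. Dashed lines mark the medians of all 7982 genes. Chromatin modifiers move from 0.22 to 0.04 and the FAK signalling complex from 0.08 to -0.05.

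The genes just inside the level of 5 CPM were Amn1, Dock4 and Zfp661, with differences of -0.34, 0.60 and 0.25. Those just outside were Fndc4, Fkbp7 and Plpp3, with 0.61, -0.67 and -0.11. Among the 1401 genes set aside, 7 were called positive (0.5%) and 14 negative (0.999%), and their largest values were far above those of any described gene. Gapdh, the glycolytic enzyme, had 9948, 6186, 1328 and 7968 counts and a difference of 3.26, with the shFAK vehicle library far below the rest. Rpl30, a ribosomal protein, had 1342, 3849, 3198 and 961 counts and a difference of -3.26. It is not given in the sources used here how a read that matches several loci was counted. These values are therefore uncertain, and no count above includes them.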

How the data were processed

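RNA-seq was measured in 4 Myc-CaP cultures, 1 per group. The authors deposited raw counts per gene; the submitters' processing notes name mm10, featureCounts 1.5.0-p3 and HISAT2 2.0.5. Not given in the sources used here are the annotation release, whether counting used strand, and how reads with several matches were treated. Columns were matched to samples by title.

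From these counts, CPM were scaled with TMM factors (edgeR 4.0.16, R 4.3.3) from genes with a CPM of at least 1 in at least 1 library. Log2 ratios used a prior count of 2. The interval of a line's ratio was the exact 99% Clopper-Pearson interval, and that of the difference a 99% normal approximation on the log scale. Copies were found with minimap2 2.31 on GENCODE M21 transcripts: the longest transcript of a gene matching another locus at 95% identity or more over at least 100 bases. Coordinates matched that release for 95.2% of identifiers, and 99.9% of the described genes had a GC value. The trend was a natural spline on log2 length and GC, taken off each library. The computation was tested on simulated data.

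Named genes were up to 15 called genes per direction (predicted genes passed over), up to 10 per direction and line by norepinephrine ratio, up to 3 per list by size of difference, up to 4 set-aside genes per direction, and Ptk2, Ptk2b, Npy, Cck, Il33, Mgp and Folh1; Adra1b and Slpi were added after their values were seen. Some genes and lists are not reported here. Genes and lists were chosen with earlier results of these data known. Alternatives in scaling, filter, prior count, size, trend and copy rule were run.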

Additional observations from a re-analysis of the deposited data

Results flagged for a closer look

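Rpl30, set aside for its near-identical copies, had norepinephrine ratios in opposite directions in the lines, 1.67 in shNC and -1.59 in shFAK, a difference of -3.26 (-3.259 before rounding). With 1 library per group this difference was not tested.

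The shFAK norepinephrine library held 119 genes with at least 8 counts there and at most 2 in each other library, against 4 to 9 such genes in each of the other libraries. Of the 119, 111 are protein-coding, with a median of 10 and a highest value of 23 counts, and 0 of them are among the 7982 genes described. The part of this excess in the differences reported here was not tested.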

How the results depend on the processing

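The count of positive genes (31) was 50 with library totals alone, 53 at a mean CPM of 1 or more, 17 at 10 or more, 104 without a filter, 0 at 2-fold, 565 at 1.2-fold and 19 when detrended for length and GC. The count of negative genes (16) was 29 at a mean CPM of 1 or more, 6 at 10 or more, 32 without a filter, 0 at 2-fold, 318 at 1.2-fold and 28 with copied genes kept. The median difference (0.021) was 0.064 with library totals alone, 0.0022 with DESeq2 1.42.0 size factors, 0.015 with upper-quartile factors, 0.034 without a filter, -0.021 when detrended, 0.011 with copies kept and 0.026 with copies at 90% identity also set aside. The slope (0.39) was 0.16 without a filter and 0.33 when detrended. Pearson's r (0.66) was 0.52, 0.14 and 0.48, and Spearman's rho (0.67) 0.59, 0.40 and 0.46, at a mean CPM of 1 or more, without a filter and when detrended; the ratio of the SDs (1.69) was 1.42, 0.90 and 1.44. Fewer or more genes enter under another filter; otherwise the cause was not tested. Over the named genes and all alternatives, 1886 values kept their side of the rule, 49 came to be called and 46 ceased to be. Of the genes called at first 0 changed sign, and 0 others came to be called against their first direction. The direction of values that stayed uncalled was not compared, and some changed sign. Ptk2b, for example, was at 0.04 as scaled and -0.09 when detrended. A search of every isoform for copies, chosen after seeing the data, gave 27 and 14 genes, all among the 31 and 16. No paired analysis was possible because each group has 1 library and the labels give no replicate numbers, and no replicate could be left out. Differences of genes near 5 CPM have counting intervals of more than 1 log2 unit in width.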

Other observations

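Of 23 mitosis genes 16 had a positive difference, with a median of 0.04, and 7 were positive and 3 negative by the interval alone, or 1 and 2 when detrended for length and GC. Kntc1, a kinetochore checkpoint protein, had 1848 and 1113 counts in shNC (vehicle, then norepinephrine), 1944 and 1579 in shFAK, and a difference of 0.42 (0.23 to 0.61), while Cdk1, the mitotic kinase, had one of -0.22 (-0.31 to -0.12). Of 22 DNA replication genes 13 were above 0, and 3 were positive and 3 negative, or 0 and 7 when detrended. Pole, the leading-strand polymerase, had a difference of 0.26 (0.13 to 0.40), or 0.09 when detrended (-0.05 to 0.23), and Gins2, a subunit of the replicative helicase, one of -0.30 (-0.49 to -0.10); 67.3% of the exon bases of Gins2 overlap Gse1 on the other strand.

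The 6 mesenchymal genes had a median of -0.03, with 3 above 0. Acta2, smooth muscle actin, had 452, 369, 648 and 411 counts, with ratios of -0.14 in shNC and -0.51 in shFAK and a difference of -0.37 (-0.72 to -0.02), or -0.24 when detrended (-0.59 to 0.11). Fn1 of the same list was at 0.37, or 0.18 when detrended. Glycolysis, hypoxia, ribosome biogenesis, DNA replication, heat shock, circadian, p53, angiogenic and NRF2 lists had medians from -0.10 to 0.07, with 0 genes called. Gadd45g, a stress-induced gene outside the naming rule and picked after its values were seen, had 1752, 2380, 1792 and 1714 counts, with ratios of 0.59 and 0.08 and a difference of -0.51 (-0.69 to -0.34).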
